A study of Mus musculus with 2 samples.

Results

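The miR-26 family of the mouse consists of 3 miRNA genes, Mir26b, Mir26a-1 and Mir26a-2, each of which lies in an intron of a gene for a small phosphatase of the Ctdsp family. They were found by gene identifier among the 1973 miRNA genes of the deposited tables, and all 3 had rows with counts. The tables hold microRNA-seq of total RNA below 30 nt from whole stomach of mouse embryos at 15.5 days, strain B6NCrl, both sexes mixed. Stomachs of 62 embryos were pooled for replicate 2 and of 78 embryos for replicate 1, so spread between single animals is not visible. Both form 1 group with no treatment, mutant or second stage, and the comparisons are therefore among genes and between the 2 libraries.

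MicroRNAs guide Argonaute proteins to messenger RNAs mainly through their seed, bases 2 to 8 of the mature strand. The miR-26 family is known as a brake on proliferation that represses, among others, the chromatin methyltransferase Ezh2, and its genes are known targets of repression by Myc. The host genes Ctdsp1, Ctdspl and Ctdsp2 encode phosphatases that act on the C-terminal domain of RNA polymerase II. In zebrafish, miR-26b is known to repress ctdsp2, the gene that hosts it there.

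The main strands of the family differ at their centre and end but not in the seed. They are shown because the counts below turn on which of them are unique to a gene. Sequences are those of RefSeq on GRCm38.p6, all on the plus strand, written 5′ to 3′ with the seed in capitals.
miR-26b-5p: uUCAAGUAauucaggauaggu
miR-26a-5p: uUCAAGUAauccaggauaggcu
miR-26b-3p: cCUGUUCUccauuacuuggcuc
miR-26a-2-3p: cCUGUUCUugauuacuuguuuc
miR-26a-1-3p: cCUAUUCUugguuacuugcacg

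All 3 genes give a 5p strand with the seed UCAAGUA, and no other gene of the tables with a RefSeq mature sequence shares that seed. Positions are counted from 1 at the 5′ end of the strand. Over the 21 positions they have in common, miR-26b-5p differs from miR-26a-5p by C11U and C21U, written with the miR-26a base first, and miR-26a-5p is 22 bases long. The miR-26a-5p strand is identical in Mir26a-1 and Mir26a-2 and occurs in 2 RefSeq hairpins, while miR-26b-5p occurs in 1. The 3p strands tell the copies apart, with 6 substitutions in 22 positions from Mir26a-1 to Mir26a-2 (A4G, G11A, C19U, A20U, C21U and G22C). One of these, A4G, lies in the seed, so that miR-26a-2-3p and miR-26b-3p share the seed CUGUUCU and miR-26a-1-3p has CUAUUCU.

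The hairpins show how far the identity of the copies reaches. Capitals mark the longest run that the Mir26a copies share, and in Mir26b the 5p strand.
Mir26b: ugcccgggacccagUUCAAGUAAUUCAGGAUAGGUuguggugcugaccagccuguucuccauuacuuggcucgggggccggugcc
Mir26a-1: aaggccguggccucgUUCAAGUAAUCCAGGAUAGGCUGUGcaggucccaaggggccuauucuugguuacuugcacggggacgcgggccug
Mir26a-2: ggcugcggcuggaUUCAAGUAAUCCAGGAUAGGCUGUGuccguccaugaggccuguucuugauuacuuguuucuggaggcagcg

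The shared run of the copies was 25 bases long and began at the first base of the mature strand, so it covered all of miR-26a-5p and the next 3 bases of the hairpin. A read inside this run matches both copies equally. Outside it the hairpins diverged: aligned end to end, Mir26a-1 and Mir26a-2 were identical at 66 of 91 alignment columns (72.5%), Mir26a-1 and Mir26b at 63 of 92 (68.5%), and Mir26a-2 and Mir26b at 59 of 89 (66.3%). The longest run shared with Mir26b was 11 bases for Mir26a-1 and 10 bases for Mir26a-2. Predicted folding energies were -43.5 kcal/mol for Mir26b, -44.5 kcal/mol for Mir26a-2 and, lowest, -49.4 kcal/mol for Mir26a-1.

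Each gene sat on the strand of its host, and the host was the only other gene of GENCODE M21 that spanned it. Mir26b (chr1:74394310-74394394, 85 bases) lay in intron 4 of 6 of Ctdsp1, the shortest host at 5777 bases, 234 bases after the upstream exon and 245 before the next. Mir26a-1 (chr9:119031796-119031885, 90 bases) lay in intron 5 of 7 of Ctdspl, a gene of 117546 bases, 105343 bases into the transcript. Mir26a-2 (chr10:126995530-126995613, 84 bases) lay in intron 5 of 7 of Ctdsp2, 241 bases before the downstream exon. It is intronic in the main Ctdsp2 transcript, while 2 shorter annotated transcripts of the gene begin at its last base. Intron numbers are those of the principal transcript of each host. The host transcripts are too long for this assay and were not measured.

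**Figure D1:**
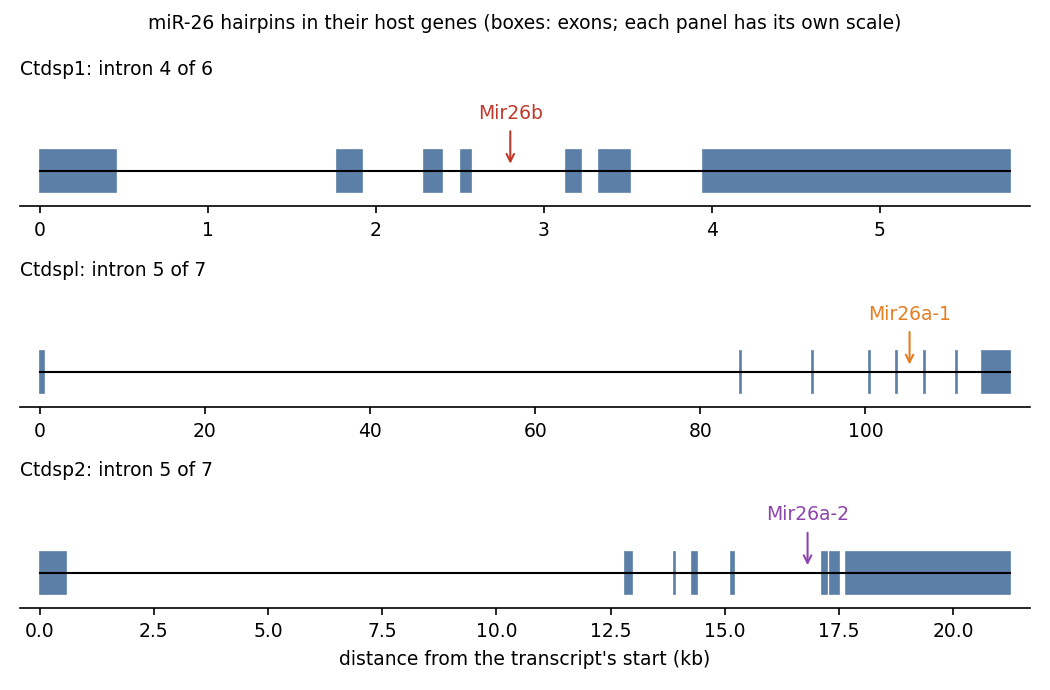
Position of the 3 miR-26 hairpins (arrows) in the principal transcript of each host gene, with exons as boxes and the distance from the transcript's start in kb on the x axis, on a separate scale in each panel. Mir26b lies in intron 4 of 6 of Ctdsp1, and Mir26a-1 and Mir26a-2 lie in intron 5 of 7 of Ctdspl and Ctdsp2.

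The counts rest on deep libraries. The sense counts over all miRNA genes came to 6675498 for replicate 2 and 5988677 for replicate 1, and levels are given as CPM, counts scaled to a common library total. In both libraries the markers of the stomach wall were abundant: the 5 epithelial miR-200 genes summed to 43188 CPM in replicate 2 and 43502 CPM in replicate 1, and the smooth muscle genes Mir143 and Mir145a to 183398 and 178424 CPM. Reads that match several places have a line of their own in the tables and enter no gene's count. They made up 27.0% of 12633753 reads in replicate 2 and 25.5% of 11558785 reads in replicate 1. Reads are not independent molecules, and intervals on counts and shares therefore describe counting error alone.

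Mir26b was counted among the most abundant miRNA genes of the tissue. It had 246957 counts in replicate 2 and 165504 counts in replicate 1, and ranked 6th and 7th of 1973 genes. Scaled, its level was 36994 CPM (95% Wilson interval 36852 to 37138) for replicate 2, against 27636 CPM (27505 to 27768) for replicate 1. Mir26b thus held 3.70% of sense counts in replicate 2 and 2.76% in replicate 1, a mean of 3.23% ± 0.662 (SD, n = 2). Ranks and shares leave out the reads that match several places, so they can differ from those of the miRNAs in the tissue. In bulk tissue fewer cells of a type and less RNA per cell cannot be told apart, so these levels do not say which cells carried the miRNA.

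The genes next to Mir26b in level were Mirlet7i and Mir10a above it and Mir126a and Mir130a below it. Mirlet7i, of the let-7 family that rises with differentiation, stood above Mir26b in both libraries at 50239 ± 864 CPM (SD, n = 2 here and in the following levels). Mir10a, which lies in a Hox cluster, averaged 38234 ± 6002 CPM against 32315 ± 6617 CPM for Mir26b, a gap smaller than either spread. Their order turned between the libraries, with Mir10a at 33991 CPM in replicate 2 and 42478 CPM in replicate 1. Mir126a, the miRNA of endothelium, was below Mir26b in both libraries at 25628 ± 830 CPM, and Mir130a at 22209 ± 2080 CPM.

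The Mir26a genes were counted at low levels. Mir26a-2 had 262 counts in replicate 2 and 303 in replicate 1, or 39.2 CPM (34.8 to 44.3) and 50.6 CPM (45.2 to 56.6), a mean of 44.9 ± 8.02 CPM. Mir26a-1 had 62 counts in replicate 2 and 71 in replicate 1, or 9.29 CPM (7.25 to 11.9) and 11.9 CPM (9.40 to 14.95), a mean of 10.6 ± 1.82 CPM. The levels of the copies did not overlap each other in either library, and both lay far below Mir26b. By mean level Mir26a-2 ranked 234th and Mir26a-1 ranked 288th of the 1973 genes, while the median of the 466 genes with at least 10 summed counts was 45.1 CPM. None of the 3 genes had opposite-strand counts, which allows up to 0.449 CPM in replicate 2 and 0.501 CPM in replicate 1.

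**Figure D2:**
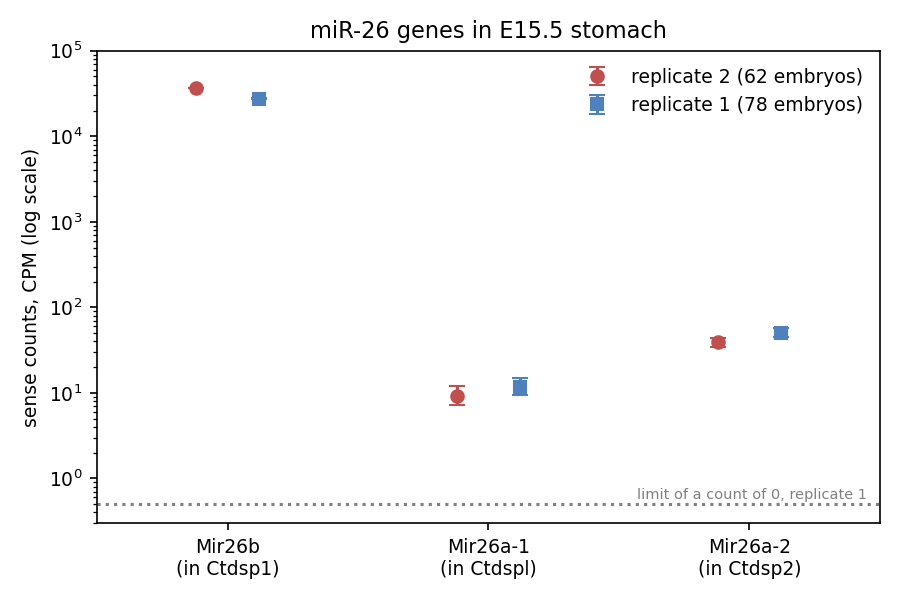
Sense counts of the 3 miR-26 genes in CPM on a log axis, with replicate 2 (circles) left of replicate 1 (squares), bars as 95% Wilson intervals for counting error, and a dotted line at the limit that a count of 0 allows in replicate 1. Mir26b stands at 36994 and 27636 CPM and both Mir26a genes stand at or below 50.6 CPM.

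Counted reads of Mir26b far exceeded those of both Mir26a genes combined, more so in replicate 2 than in replicate 1. There were 762 counts of Mir26b for each count of Mir26a-1 plus Mir26a-2 in replicate 2 (95% exact Clopper-Pearson interval 684 to 853) and 443 in replicate 1 (400 to 491). On the log2(CPM + 1) scale the difference was 9.54 in replicate 2 and 8.77 in replicate 1, with a mean of 9.16 ± 0.55 (SD, n = 2). The genes are of like length, and per annotated base the mean difference was 9.16 as well. Mir26b made up 99.9% of the family's counts in replicate 2 and 99.8% in replicate 1.

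This comparison is one of assigned reads, not of miR-26b against miR-26a. The 5p strand of miR-26a lies wholly inside the run that the copies share, so its reads match more than 1 place, and the gene rows of Mir26a-1 and Mir26a-2 leave such reads out. The multi-mapping line held 13.8 reads for each Mir26b count in replicate 2 and 17.8 in replicate 1. How many of those reads were miR-26a-5p was not analysed here, because the line gives a total with no sequences. The level of miR-26a in the tissue is therefore unknown from these tables, and the counts of its genes are the part that could be placed.

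Among the reads that could be placed, the copies kept a nearly constant proportion. Mir26a-2 had 4.23 counts for each count of Mir26a-1 in replicate 2 (95% exact interval 3.19 to 5.67) and 4.27 in replicate 1 (3.29 to 5.61). Put as a share, Mir26a-1 held 19.1% of the counts of the copies, with a Wilson interval of 15.2 to 23.8, in replicate 2 and 19.0%, with an interval of 15.3 to 23.3, in replicate 1, a mean of 19.1% ± 0.107 (SD, n = 2). The tables give no counts per strand, so whether these reads came from the 3p strands, which differ between the copies, was not tested.

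Between the 2 libraries the ratio was above 0 for Mir26b and below 0 for both Mir26a genes, in all 3 by less than 2-fold, and the interval of Mir26a-1 included 0. Mir26b stood 0.42 higher on the log2 scale in replicate 2 than in replicate 1 (95% exact interval 0.41 to 0.43), a ratio of 1.34. Mir26a-2 had a log2 ratio of -0.36 (-0.61 to -0.12) and Mir26a-1 of -0.32 (-0.87 to 0.16). Their sum had a log2 ratio of -0.36 (-0.58 to -0.15), and its interval did not overlap that of Mir26b. The scaling moves both alike. These intervals hold counting error alone and no spread between pools, against which the gap was not tested. Ratios are of replicate 2 over replicate 1 with 1 CPM added, and the intervals carry no added CPM.

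None of the 3 genes was called between the libraries. Calling a gene required both an adjusted p below 0.05 and a change of 2-fold or more (1 on the log2 scale). Of 466 tested genes 27 met this, or 5.79%, with 0.644% higher and 5.15% lower in replicate 2. By the two-sided exact binomial test with Benjamini-Hochberg adjustment over all tested genes, the adjusted p was at most 1e-300 for Mir26b, 0.00693 for Mir26a-2 and 0.279 for Mir26a-1. For Mir26a-2 the adjusted p of this test became 0.106 with TMM scaling and 0.168 with DESeq2 size factors, which were 1 for both libraries. Without the fold limit 46.4% of genes passed, 13.1% as higher and 33.3% as lower in replicate 2, so a small p at this depth is common. The test compares the reads of these 2 libraries, not conditions, and takes no account of spread between pools. With edgeR's exact test, in which the gap between the pools itself sets the spread (biological coefficient of variation 20.1%) and 0.858% of genes were called, the p before adjustment was 0.185 for Mir26b, 0.585 for Mir26a-2 and 0.653 for Mir26a-1, and the adjusted p was 1 for each.

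The ratio of Mir26b was then set beside those of all genes and of genes of like level. The median log2 ratio of the 466 tested genes was -0.11, and relative to it Mir26b stood at 0.53, Mir26a-1 at -0.21 and Mir26a-2 at -0.24. Among the 93 genes with at least 1000 CPM in both libraries, the median was -0.07, 9, Mir26b included, had a ratio at least as large in size in either direction, and 2 had a higher one. Over all 466 genes, 131 (28.1%) had a ratio at least as large in size and 28 a higher one. The 2 abundant genes were Mir375, an endocrine miRNA, at 0.85 (chosen after its values were seen) and Mir215, a gut epithelial miRNA, at 0.48. The ratios of the Mir26a genes were ordinary for their level: of 116 genes between 5 and 100 CPM, 75 were lower in replicate 2, with a median of -0.24 and quartiles of -0.47 and 0.07.

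**Figure D3:**
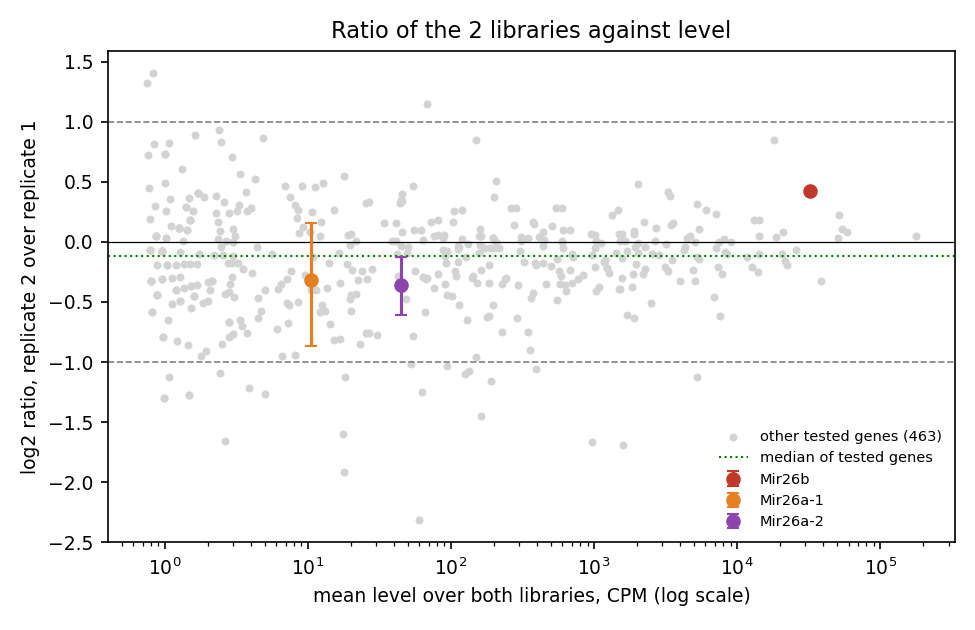
Log2 ratio of replicate 2 over replicate 1 (y axis) against mean CPM on a log axis (x axis) for the 466 tested miRNA genes, with the miR-26 genes coloured and their 95% exact intervals as bars, and dashed lines at the limit of 1. Mir26b (0.42) lies above the dotted median of -0.11, and Mir26a-1 (-0.32) and Mir26a-2 (-0.36) lie below it, all inside the limit.

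Likeness in ratio was measured as the absolute difference of log2 ratios over the 2 libraries, among genes with at least 1000 CPM in both. The genes nearest to Mir26b were Mir342 (ratio 0.42, difference 0.0043), Mir423 (0.38, difference 0.039) and Mir215 (0.48, difference 0.061). With 2 libraries this likeness rests on 1 ratio per gene. Markers of other cell types differed between the same libraries: Mir122 of liver had 757 CPM in replicate 2 and 2445 CPM in replicate 1, and the 3 red cell genes Mir144, Mir451a and Mir486 summed to 345 and 727 CPM. All 4 were called as lower in replicate 2. The other markers on the list used here were not called. Mir206 of striated muscle had a log2 ratio of 0.85 and Mir208b of -0.31, Mir143 of smooth muscle 0.05 and Mir145a -0.51, myeloid Mir223 -0.17, endothelial Mir126a -0.07, and the 5 epithelial genes between -0.21 and 0.05. Outside that list, striated muscle Mir208a was called as lower in replicate 2 (ratio -1.22), with 13 counts there and 35 in replicate 1. Mir499 (-0.67) and Mir133b (-0.33), also of muscle, were not called. These 3 were named after their values were seen. The part of these markers in the ratios of the miR-26 genes was not tested.

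The other miRNAs that Myc is known to repress had ratios on both sides of 0. Of 21 genes on this textbook list, 20 had rows and 18 were tested, among which 0 were called, 5 had a ratio above 0 and 13 below. Their median log2 ratio was -0.22, against -0.11 over all tested genes, and they ranged from -0.96 for Mir30b to 0.51 for Mirlet7a-1. The highest by level were Mirlet7g at 53795 CPM (ratio 0.10) and Mir30e at 13924 CPM (ratio -0.25). Of the miRNAs that Myc induces, the miR-17-92 cluster and its paralogs, all 14 genes were tested and 0 were called, with 4 ratios above 0, 10 below and a median of -0.09. Their highest were Mir17 at 21613 CPM (ratio -0.16) and Mir93 at 8210 CPM (ratio -0.09).

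Genes with shared mature strands were set beside the Mir26a copies. RefSeq sequences were found for 858 of the 1973 genes, which held 76.7% of sense counts. Of these, 49 genes, Mir26a-1 and Mir26a-2 among them, had some but not all listed mature strands in another hairpin, 34 had all of them there, and 775, with Mir26b, had none. The classes rest on the strands and hairpins that are listed. A gene whose shared strand is not listed can fall among those with none, where Mirlet7a-2 stands with 1 listed strand. At least 10 counts in both libraries were found for 36 genes with some shared strands, 10 with all shared and 276 with none shared. Their median levels were 52.7 CPM, 46.6 CPM and 146 CPM. At least 1000 CPM in both libraries was reached by 3 of the 36 genes with some shared strands (8.33%), against 76 of the 276 with none (27.5%). These shares and the medians depend on the minimum of 10 counts, which 73.5% of the first class passed and 35.6% of the second. Over all 49 and 775 genes the shares were 6.12% and 9.81%. Mir26a-2, at 44.9 CPM, lay near the median of its class and Mir26a-1, at 10.6 CPM, below it. This is a description of counted reads with no test.

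**Figure D4:**
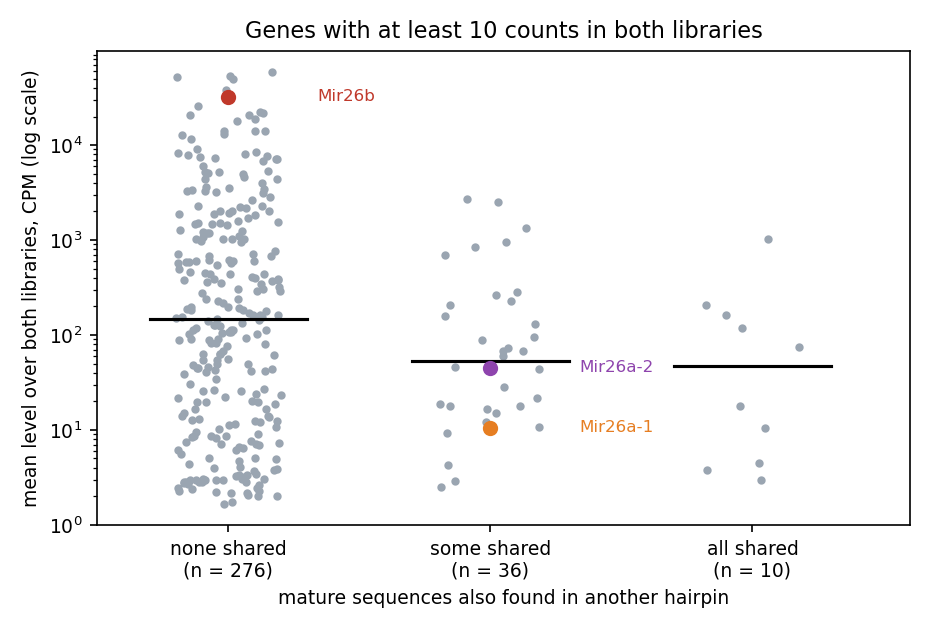
Mean CPM over both libraries (log axis) of miRNA genes with at least 10 counts in both, by whether some, all or none of their mature sequences occur in another RefSeq hairpin, with black lines at the medians. The median is 52.7 CPM for some shared, where Mir26a-2 and Mir26a-1 lie, 46.6 CPM for all shared and 146 CPM for none shared, where Mir26b lies near the top.

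Seed families that hold both a gene with no shared strand and listed copies of another strand were compared in the same way. The first gene was taken as the most abundant of its seed with no shared strand, and in 8 of them it had 1000 CPM or more on average. In all 8 it stood above the summed copies in both libraries. No conclusion is drawn from this direction, because the first gene was picked for its high level. The copies also lack the reads of their shared strands. Copies of let-7 entered more than once, below with Mirlet7g and, by another seed, with Mir98. The difference was smallest for Mir181d over Mir181a-1 and Mir181a-2, at 1.65 on the log2(CPM + 1) scale. It was larger than in miR-26 in 1 family, where Mir149 had 3610 CPM in replicate 2 and 3274 CPM in replicate 1 and its 3p seed is shared with Gm27740 and Gm27775, which had 0 counts in both. Against the 3 counts that a count of 0 allows per library, Mir149 was at least 8033-fold higher in replicate 2 and at least 6536-fold higher in replicate 1. Mir149 and Mir181d were named after their values were seen. With Mir181b-1 and Mir181b-2, which share the seed too, added to its copies, the difference of Mir181d was 0.76. Next are the 3 families, beside miR-26, with the most abundant gene of this kind. Mirlet7g exceeded the sum of Mirlet7c-1 and Mirlet7c-2 by 7.38 ± 0.06 (SD, n = 2). Over the 4 genes of its seed with a listed shared strand, it stood 4.05 ± 0.02 higher. These include Mirlet7f-2 at 2717 CPM and Mirlet7a-1 at 207 CPM, but not Mirlet7a-2 at 198 CPM. Mir322 exceeded the sum of Mir16-1 and Mir16-2 by 3.69 ± 0.24, and Mir30e that of Mir30c-1 and Mir30c-2 by 7.26 ± 0.02. The value for Mir26b, 9.16 ± 0.55, was above those of these 3 families in both libraries. Mir25 ran the other way and had a difference of -2.59 ± 0.04 to the sum of Mir92-1 and Mir92-2, a family named after its values were seen.

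The nearest parallel in gene structure is the miR-103 and miR-107 family, whose genes lie in introns of the Pank genes. Mir107 had 938 CPM in replicate 2 and 1215 CPM in replicate 1, Mir103-2 had 38.9 and 49.3 CPM, and Mir103-1 had 2.40 and 3.34 CPM. Mir107 exceeded the summed Mir103 copies by 4.49 ± 0.02, and unlike in miR-26 its ratio between the libraries (-0.37) had the sign of those of the copies (-0.33 and -0.35). The copies of miR-128, in R3hdm1 and Arpp21, stood at 72.3 ± 5.85 CPM for Mir128-1 and 17.7 ± 5.01 CPM for Mir128-2. Those of miR-218, in Slit2 and Slit3, stood at 15.2 ± 2.08 CPM for Mir218-1 and 45.7 ± 1.85 CPM for Mir218-2.

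**Figure D5:**
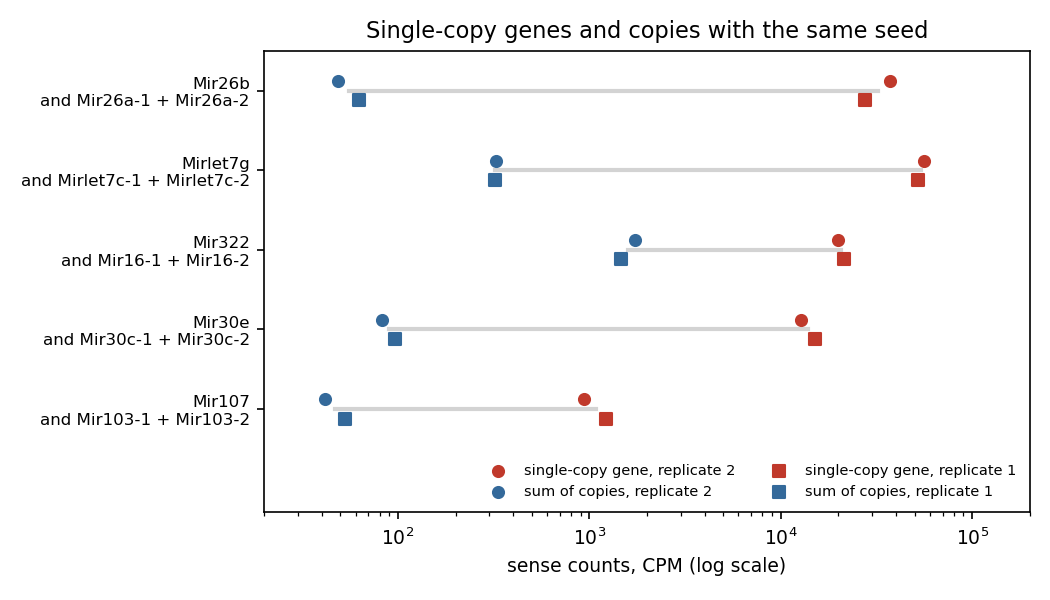
Sense counts in CPM (log axis) of a gene with no shared mature strand (red) and of the sum of copies with the same seed (blue), with replicate 2 as circles above replicate 1 as squares. Of the 5 families drawn, the gap is widest for Mir26b over Mir26a-1 plus Mir26a-2, at 9.16 on the log2 scale, and narrowest for Mir322 over Mir16-1 plus Mir16-2, at 3.69; wider and narrower gaps occur in families not drawn.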

How the data were processed

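Per the deposited description files, the authors quantified genes on mm10 with GENCODE annotation M4. Which aligner, trimmer and counter they ran is not given in the sources used here. Each library has a deposited table of raw read counts, whole numbers, by miRNA gene. The tables have no header: column 2 equals the sum of columns 3 and 4 in each gene row, and column 3, which holds nearly all counts, was taken as the sense strand. Lines that name no gene stayed out of totals and tests. Symbols and coordinates came from GENCODE M21 on the same assembly (1894 of 1973 identifiers matched), sequences from RefSeq.

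CPM, Wilson and Clopper-Pearson intervals, exact binomial tests and Benjamini-Hochberg adjustment were computed over genes with at least 10 summed counts. The test was checked on data simulated with counting error alone, so the check does not cover spread between pools. A count of 0 allows 3 counts. Members and lists were chosen with earlier results of these data known. Named were the members, the 2 genes next above and below Mir26b in level, the 3 nearest in ratio, the 2 highest of each Myc list and the families shown. Alternatives covered scaling, pseudocount, count minimum, fold limit, strand, length and single replicates. Tools were Python 3.11.15, scipy 1.17.1, RNAfold 2.7.2, R 4.3.3, edgeR 4.0.16 and DESeq2 1.42.0.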

Additional observations from a re-analysis of the deposited data

Results flagged for a closer look

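Reads that match several places lie outside the gene counts and numbered 3406967 in replicate 2 and 2946663 in replicate 1. They were marked because they are signal in a line that the comparisons do not use. They stood at 10515 reads in replicate 2 and 7879 reads in replicate 1 for each count of Mir26a-1 and Mir26a-2 together. Their part in the low counts of these genes was not tested.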

How the results depend on the processing

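The ratios of the 3 miR-26 genes between the libraries kept their direction, and none was called, under all 7 alternatives run for each. This agreement carries little weight, because a pseudocount cannot turn a direction and the scaling settings moved ratios by at most 0.16. Mir26b ranged from 0.42 to 0.58 on the log2 scale, Mir26a-1 from -0.34 to -0.18 and Mir26a-2 from -0.36 to -0.21. The DESeq2 size factors came out as 1 for both libraries, so this setting compared the counts unscaled. They raised ratios by 0.16 and TMM by 0.13, more than the offset of the median gene. With them the adjusted p of Mir26a-2, 0.00693 by the exact test, became 0.168 and 0.106, and it was 1 with edgeR's exact test. The difference of Mir26b over the summed Mir26a genes, 9.16, was 8.77 to 9.54 without either replicate and 10.1 over the mean of the copies, by construction. The 27 genes called between the libraries became 4 with edgeR's exact test, 16 with a minimum of 100 summed counts, where fewer genes are tested, and 216 with no fold limit. Other settings gave 22 to 30. With a single group in the labels there was nothing to pair. Depth limits Mir26a-1, with under 100 counts in each library.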
